A study of Mus musculus with 12 samples.

Results

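The oligoadenylate synthetase (OAS) genes were followed as rows of the 2 raw count tables, one for unstimulated and one for LPS-stimulated J774A.1 cells. The members are the rows whose gene name is Oas1a, Oas1b, Oas1c, Oas1g, Oas2, Oas3, Oasl1 or Oasl2, matched by gene name. They are 8 of the 18719 genes listed in either table, and all 8 are listed in both tables, which share 16699 genes. J774A.1 is a mouse macrophage line. WT lines had received a Cas9 vector without a guide, and ACAT1 KO lines the vector with a guide to Acat1, which encodes the mitochondrial acetyl-CoA acetyltransferase that the study linked to type I interferon signaling. Each of the 4 groups holds 3 libraries: WT or ACAT1 KO, without treatment or after 2 h with 100 ng/ml LPS, the bacterial ligand of TLR4. The lines were grown as clonal populations, so a genotype difference is a difference between 3 WT and 3 KO lines, and what the edit did cannot be told apart from what sets the picked clones apart.

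OAS1, OAS2 and OAS3 enzymes bind double-stranded RNA and join ATP into short 2′-5′-linked oligoadenylates, called 2-5A. These act as a second messenger of the antiviral response. OAS genes are classical targets of type I interferon, and macrophages express them at a basal level that interferon or a TLR ligand raises.

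Libraries held 56948593 to 167280149 counts, and 17544 and 17874 genes are listed for unstimulated and LPS cells. Levels are given as CPM, counts scaled to the TMM-normalized library size. Acat1 was at 98.7 ± 15.6 CPM in WT and 26.8 ± 1.82 CPM in KO cells without stimulation (SD, n = 3), a log2 fold change of -1.87 (edgeR, adjusted p = 0.00876), and its log2 fold change after LPS was -2.08 (adjusted p = 7.87e-04). All 8 macrophage markers were listed, with a summed level of 7830 to 10526 CPM per library, whereas the defining T-cell genes Cd3e, Cd3d and Cd3g and the B-cell genes Ms4a1 and Pax5 were not listed. Of the 4 T-cell markers 1 was listed, at 5.19 to 10.99 CPM per library, of 4 neutrophil markers 2, summing to 2.08 to 5.14 CPM, and of 3 B-cell markers 1, at up to 0.938 CPM. None of 4 epithelial markers was listed, and 3 of 4 fibroblast markers summed to at most 0.961 CPM. Their part in the results was not tested. The unstimulated libraries WT 1, WT 2 and KO 2 held 0.0398 to 0.0612% of their counts on noncoding genes that lie in exons of the other strand, against 0.00904 to 0.0110% in the other 9.

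The members lie in 2 clusters on chromosome 5 of GRCm38. Oasl2 (114896936 to 114912234) and Oasl1 (114923240 to 114937915) are neighbours on the plus strand. The second cluster holds Oas2 (120730333 to 120749853, minus strand), Oas3 (120753098 to 120777661, minus), Oas1c (120800194 to 120812514, minus), Oas1b (120812635 to 120824163, plus), Oas1g (120876142 to 120887613, minus) and Oas1a (120896256 to 120907521, minus). Oas1b is annotated as a polymorphic pseudogene, since many laboratory strains carry a premature stop codon in it. The annotation also holds Oas1e, Oas1f and Oas1h, which neither table lists, and Oas1d, which is listed after LPS only, at 26 to 72 counts per library, and is not a member.

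Oas1a and Oas1g are near-identical copies, and their counts have to be read together. Their longest transcripts match at 97.53% of 1860 aligned bases, and their coding sequences, each of 1101 bases, differ at 36 positions. Of the distinct 100-base stretches of the annotated transcripts, the length of one read, 730 are shared by both genes, which is 40.87% of those of Oas1a and 31.25% of those of Oas1g. No 100-base stretch was shared by any other pair of OAS genes or between an OAS gene and another gene. The longest run without a difference is 526 bases. Reads were sequenced in pairs, so the mate of a read in a shared stretch may still tell the copies apart. The first 100 coding bases, positions 1 to 100 from the start codon, are the same in both. They show a stretch where a read cannot be assigned without its mate.
Oas1a and Oas1g: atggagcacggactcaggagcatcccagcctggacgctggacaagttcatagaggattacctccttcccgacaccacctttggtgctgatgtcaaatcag
Coding positions 428 to 527 hold the most differences of any such window, 17, marked in capitals, and show where a read does tell the copies apart.
Oas1a: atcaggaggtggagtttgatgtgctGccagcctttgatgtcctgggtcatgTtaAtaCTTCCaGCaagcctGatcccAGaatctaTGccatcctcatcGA
Oas1g: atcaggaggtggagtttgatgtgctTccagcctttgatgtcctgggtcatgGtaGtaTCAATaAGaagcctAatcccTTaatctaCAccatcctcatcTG
How the authors' counting divided reads from the shared stretches is not given in the sources used here, so values of either copy alone are uncertain. Oas1b and Oas1c match Oas1a at 76.72% and 72.7% of the aligned bases, and Oasl1 and Oasl2 match each other at 59.06%.

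Unstimulated cells expressed all 8 genes, Oas1a and Oas1g most. Per kb of exon, which allows genes to be compared, WT levels were 41.1 ± 4.11 CPM for Oas1a, 25.1 ± 3.52 for Oas1g, 12.2 ± 1.79 for Oas2, 11.6 ± 1.92 for Oas3, 5.45 ± 3.09 for Oasl1, 3.67 ± 0.0764 for Oas1c, 2.80 ± 0.959 for Oasl2 and 1.34 ± 0.417 for Oas1b (SD, n = 3). The libraries of Oas2 and Oas3 overlapped, as did those of Oasl1 with Oas1c and of Oas1c with Oasl2, and the other neighbours in the order did not. After LPS, Oasl1 led in both genotypes, at 213 ± 99.3 CPM per kb in WT and 274 ± 91.6 in KO cells, ahead of Oas1a at 83.7 ± 9.55 and 73.2 ± 5.94. Oas1c was the lowest of the 8 after LPS, at 3.44 ± 0.178 and 3.43 ± 0.315 CPM per kb. Taking the longest transcript as the length moved Oasl2 up, from the fifth to rank 3 in WT cells after LPS.

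**Figure D1:**
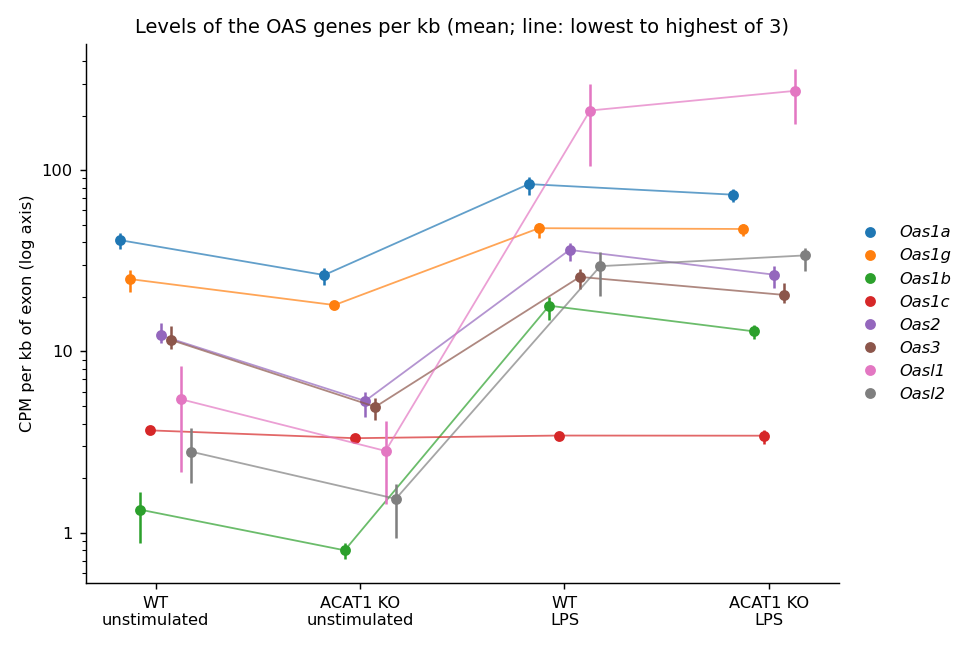
Levels of the 8 OAS genes in CPM per kb of exon (log axis) in the 4 groups. Points are means of 3 libraries, vertical lines run from the lowest to the highest library, and thin lines join a gene across groups. Oasl1 moves from the middle of the order to its top with LPS, and Oas1c stays between 3.32 and 3.67 CPM per kb.

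Without stimulation, 3 of the 8 OAS genes, Oas2, Oas3 and Oas1a, were lower in ACAT1 KO than in WT cells at an adjusted p under 0.05 (edgeR's quasi-likelihood test, Benjamini-Hochberg adjustment over 16440 genes), and none was higher. Of all genes tested, 1.17% were called lower and 0.742% higher. All 8 fold changes were below 0, with a median of -0.79 on the log2 scale against 0.0035 over all genes. Oas2 and Oas3 stood at less than 0.45 of their WT level. Bulk libraries cannot tell a lower level in every cell from fewer cells that express a gene.

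Oas3, whose enzyme is the largest of the family, was at 73.3, 97.5 and 74.7 CPM in WT lines 1, 2 and 3 and at 36.1, 39.1 and 29.7 CPM in the KO lines. Every KO library lay below every WT library. The log2 fold change was -1.22 (standard error, SE, 0.146 with an adjusted p = 0.0265), a 2.32-fold lower level. Oas2, which encodes the middle-sized synthetase, was at 49.5, 63.7 and 50.3 CPM in WT and 25.1, 26.7 and 19.4 CPM in KO lines. Here too the groups did not overlap, and the log2 fold change was -1.19 (SE 0.150, adjusted p = 0.0286). With a batch term for WT 1, WT 2 and KO 2, where noncoding counts were raised, the log2 fold changes of Oas3 and Oas2 were -1.14 and -1.12 (adjusted p = 0.00905 and 0.0107). Among these 3 libraries Oas3 was at 73.3 and 97.5 CPM in WT and 39.1 CPM in KO cells, and among the remaining 3 at 74.7 CPM in WT and 36.1 and 29.7 CPM in KO cells.

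Oas1a was at 69.2, 84.5 and 78.8 CPM in WT and 54.1, 51.1 and 43.9 CPM in KO lines. The lines of the genotypes were apart, and the log2 fold change was -0.63 (SE 0.105, adjusted p = 0.0441). Its copy Oas1g was at 49.7, 65.9 and 60.4 CPM in WT and 43.2, 43.2 and 40.1 CPM in KO lines, also without overlap, with a log2 fold change of -0.47 that did not pass (SE 0.106, adjusted p = 0.0801). The counts of all 4 listed Oas1 genes summed gave -0.53, a value that does not depend on how reads were divided between the copies.

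Oasl1, whose mouse protein lacks synthetase activity and holds back translation of Irf7, was at 5.67, 21.7 and 15.3 CPM in WT and 7.54, 10.8 and 3.77 CPM in KO lines. The groups overlapped, since WT line 1 was below KO lines 1 and 2, and the log2 fold change of -0.94 had an SE of 0.536 (adjusted p = 0.393). Oasl2, its neighbour, was at 11.97, 24.2 and 17.4 CPM in WT and 11.6, 11.9 and 5.93 CPM in KO lines, apart by a narrow margin, with a log2 fold change of -0.85 (SE 0.335, adjusted p = 0.226). Oas1b was at 1.74, 2.93 and 3.34 CPM in WT and 1.75, 1.60 and 1.43 CPM in KO lines, with an overlap of WT line 1 and KO line 1 and a log2 fold change of -0.74 (SE 0.262, adjusted p = 0.192). Oas1c held 8.61 to 8.96 CPM in WT and 7.74 to 8.19 CPM in KO lines, a difference of -0.13 on the log2 scale (SE 0.0921, adjusted p = 0.485), small although the groups did not overlap. In all, the groups did not overlap for 6 of the 8 genes, lower in KO cells in each, against 13.2% of all genes tested.

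These calls changed when single libraries were left out. Oas2 and Oas3 passed without WT library 3 (adjusted p = 0.0298 and 0.0291) but not without any other library, where their adjusted p ran up to 0.0907 and 0.0902, and Oas1a did not pass with any of the 6 left out (0.0589 to 0.154). The fold changes held their direction, from -1.29 to -1.06 for Oas2, from -1.30 to -1.07 for Oas3 and from -0.72 to -0.55 for Oas1a.

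**Figure D2:**
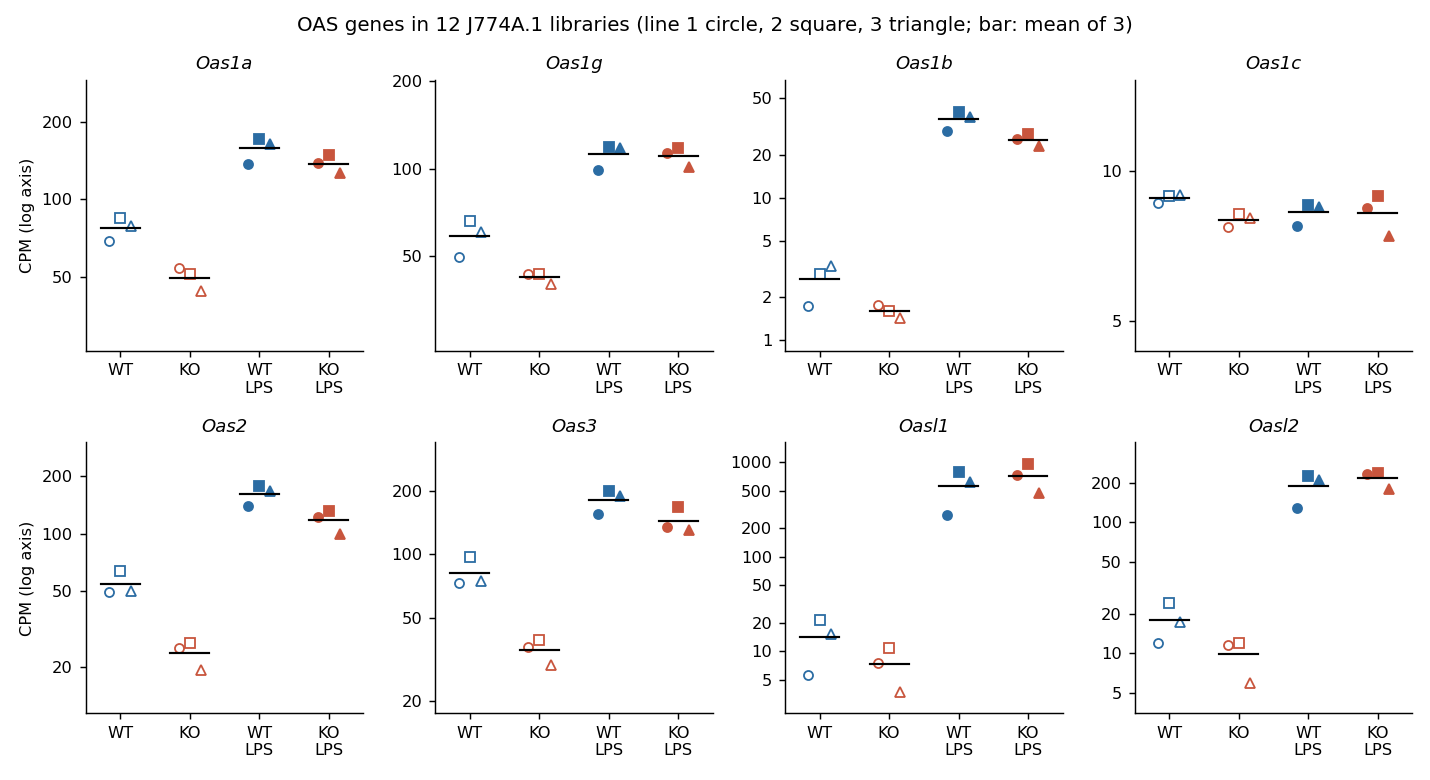
CPM of each OAS gene (log axis, a scale for each gene) in the 12 libraries. Open symbols are unstimulated and filled symbols LPS libraries, blue WT and red ACAT1 KO, with a circle, square or triangle for lines 1, 2 and 3 and a bar for the mean of 3. For Oas2 and Oas3 the KO libraries lie below all WT libraries without stimulation, and for every gene but Oas1c all LPS libraries lie above the unstimulated ones.

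After LPS, 7 of the 8 OAS genes rose in WT cells and the same 7 rose in KO cells, from the test over all 12 libraries and 16535 genes. Of all genes, 29.3% were called higher after LPS in WT and 29.5% in KO cells. The size of the rise set the members apart. Oasl1, Oasl2 and Oas1b rose by more than 10-fold and Oas1a, Oas1g, Oas2 and Oas3 by less than 5-fold in the fit. Oas1c did not pass in either genotype. The median over the 8 genes was 1.36 in WT and 2.18 in KO cells on the log2 scale, against -0.018 and -0.026 over all genes.

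Oasl1 rose from the values above to 273, 782 and 613 CPM in WT and 722, 948 and 471 CPM in KO lines, log2 fold changes of 5.29 (SE 0.593, adjusted p = 1.03e-05) and 6.60 (0.631, 2.33e-06). Oasl2 reached 129, 225 and 211 CPM in WT and 232, 238 and 177 CPM in KO lines, log2 fold changes of 3.40 (0.325, 2.67e-06) and 4.46 (0.342, 3.49e-07). Oas1b reached 29.7, 39.8 and 37.2 CPM in WT and 26.0, 27.9 and 23.2 CPM in KO lines, log2 fold changes of 3.72 (0.206, 3.01e-08) and 4.01 (0.210, 1.59e-08). An antisense gene that overlaps the start of Oasl1, Gm13822 (114917318 to 114923277, minus strand), also rose, by 2.92 in WT and 3.67 in KO cells on the log2 scale, and since it is not stated that the counting used strand, its reads and those of Oasl1 cannot be told apart where they overlap.

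Oas2 reached 140, 177 and 167 CPM in WT and 122, 132 and 99.7 CPM in KO lines, log2 fold changes of 1.57 (0.150, 2.68e-06) and 2.31 (0.154, 1.12e-07). Oas3 reached 155, 201 and 190 CPM in WT and 135, 168 and 131 CPM in KO lines, log2 fold changes of 1.15 (0.149, 3.25e-05) and 2.05 (0.153, 2.78e-07). For Oas2 all 3 KO lines, and for Oas3 KO lines 1 and 3, were below every WT line. Oas1a reached 138, 172 and 164 CPM in WT and 139, 149 and 126 CPM in KO lines, log2 fold changes of 1.03 (0.109, 6.68e-06) and 1.47 (0.110, 2.94e-07). Oas1g rose by 0.93 (0.105, 1.12e-05) in WT and by 1.39 (0.107, 3.42e-07) in KO cells. Oas1c stood at 7.77, 8.55 and 8.46 CPM in WT and 8.42, 8.90 and 7.42 CPM in KO lines, log2 fold changes of -0.094 (adjusted p = 0.372) and 0.046 (adjusted p = 0.661). For the 7 genes that rose, each LPS library lay above each unstimulated library of its genotype, as for 31.4% of all genes in WT and 33.2% in KO cells, and each passed without any 1 of the 12 libraries.

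The promoters of 6 of the 8 genes are in the RefSeq table of GRCm38.p6, which reaches from 250 bases before to 50 after each start. The windows were searched on both strands for GAAA, any 2 bases and GAAA again, the core of the element bound by interferon-activated transcription factors. It was present in 4 of the 6, in Oas1a, Oas1g, Oas1c and Oas3, and in 1131 of 32851 windows overall (3.443%). In Oas1a, Oas1g and Oas1c, 2 matches share 4 bases. The sequences run from 150 bases before to 20 after the start, on the strand of the gene, with matches in capitals, and are shown so that genes with larger and smaller rises can be read side by side.
Oas1a, chr5:120907506-120907675, minus strand: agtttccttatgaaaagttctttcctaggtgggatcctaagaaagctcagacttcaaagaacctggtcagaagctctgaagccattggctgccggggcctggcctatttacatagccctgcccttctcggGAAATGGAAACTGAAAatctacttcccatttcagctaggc
Oas1g, chr5:120887594-120887763, minus strand: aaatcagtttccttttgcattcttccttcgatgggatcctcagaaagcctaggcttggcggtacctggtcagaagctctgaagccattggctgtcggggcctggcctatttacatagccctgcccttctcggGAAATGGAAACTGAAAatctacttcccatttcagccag
Oas1c, chr5:120812495-120812664, minus strand: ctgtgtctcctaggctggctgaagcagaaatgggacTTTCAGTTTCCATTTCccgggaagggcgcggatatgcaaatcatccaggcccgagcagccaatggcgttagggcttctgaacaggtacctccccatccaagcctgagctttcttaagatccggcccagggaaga
Oas3, chr5:120777640-120777809, minus strand: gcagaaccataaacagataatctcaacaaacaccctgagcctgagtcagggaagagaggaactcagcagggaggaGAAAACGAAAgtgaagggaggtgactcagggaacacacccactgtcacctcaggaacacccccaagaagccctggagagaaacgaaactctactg
Oasl1, chr5:114923090-114923259, plus strand: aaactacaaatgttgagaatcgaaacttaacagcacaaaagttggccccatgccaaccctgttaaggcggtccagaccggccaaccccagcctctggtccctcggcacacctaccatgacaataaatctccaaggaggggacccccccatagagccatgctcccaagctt
Oasl2, chr5:114896784-114896953, plus strand: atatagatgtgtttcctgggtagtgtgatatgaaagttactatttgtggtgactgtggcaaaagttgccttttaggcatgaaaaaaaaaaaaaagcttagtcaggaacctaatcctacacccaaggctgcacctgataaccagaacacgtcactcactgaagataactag
The windows of Oas1a and Oas1g match at 261 of 294 aligned bases (88.78%) and carry the motif at nearly the same place, its first base 20 and 18 bases before the start. The window of Oas1c holds it on the other strand, at 114 bases before the start, and Oas1c did not pass the test of the LPS response. This window also spans the start of Oas1b, at 120812635 on the plus strand. Read on that strand, the match has the same letters as in Oas1a and Oas1g and lies just before the Oas1b start. Which of the 2 genes it serves was not tested. Oasl1 and Oasl2, which both rose by more than 10-fold, hold no match to these letters in their window, as annotated. Oas1b, whose rise in WT cells lay between theirs, and Oas2 have no window of their own in the table. The bases around the Oas1b start are seen only through the window of Oas1c, so the count of windows with a match does not cover Oas1b as a gene.

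After LPS, 2 of the 8 OAS genes, Oas1b and Oas2, were lower in ACAT1 KO than in WT cells, and none was higher. Of the 16483 genes tested in LPS cells, 9.12% were called lower and 5.93% higher. The members did not move in 1 direction: 4 fold changes lay above 0 and 4 below, with a median of -0.084. Oas1b had a log2 fold change of -0.45 (SE 0.114, adjusted p = 0.0351) and Oas2 of -0.43 (SE 0.116, adjusted p = 0.0419). For both, every KO library lay below every WT library, as for 21.9% of all genes tested.

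Oas3 had a log2 fold change of -0.31 (SE 0.120, adjusted p = 0.121) and Oas1a of -0.17 (0.0929, 0.245). Oas1g was at 98.6, 119 and 118 CPM in WT and 113, 117 and 102 CPM in KO lines, a difference of 0.0057 (0.0866, adjusted p = 0.975). Oasl1 and Oasl2 had fold changes above 0, 0.38 (0.368, adjusted p = 0.526) and 0.22 (0.200, 0.502), with overlapping libraries. Oas1c differed by 0.017 (0.0929, 0.925). Summed over the 8 genes, the level was 316 ± 50.1 CPM in WT and 177 ± 22.0 CPM in KO cells without stimulation and 1402 ± 388 and 1475 ± 327 CPM after LPS (SD, n = 3). The sums were apart without stimulation and overlapped after LPS. Oasl1 alone held 556 ± 259 CPM in WT and 713 ± 239 CPM in KO cells after LPS. The sums after LPS therefore follow Oasl1 most and do not speak for each member.

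These calls too changed with single libraries. Without WT library 1, the lowest of the WT LPS libraries for all 8 genes, Oas3 and Oas1a also passed (log2 fold changes of -0.41 and -0.26, adjusted p = 0.0387 and 0.0492), and without any 1 of the other 5 libraries no member passed, with adjusted p up to 0.116 for Oas1b and 0.130 for Oas2. In a single fit of all 12 libraries no member passed after LPS.

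**Figure D3:**
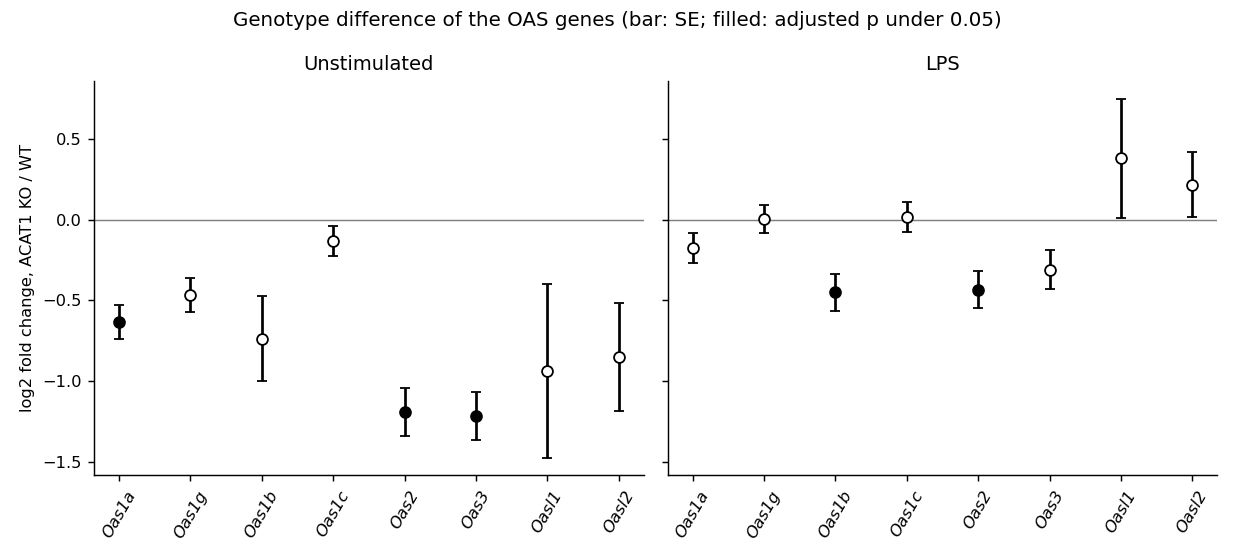
Log2 fold change of ACAT1 KO over WT for the 8 OAS genes without stimulation (left) and after LPS (right), with the standard error as bar. Filled points have an adjusted p under 0.05. All 8 values are below 0 without stimulation, from -1.22 to -0.13, and those after LPS run from -0.45 to 0.38.

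The rise with LPS was larger in KO than in WT lines for 6 of the 8 members when the line was a block in edgeR's model, and passed for none in edgeR without it. The test was the interaction of genotype and LPS. The comparisons share libraries, so a low unstimulated KO value enters both the genotype difference and the response. Without the line in the model, edgeR called 0 of the 8 at an adjusted p under 0.05, limma-voom 0 and DESeq2 2 (Oas2 and Oas3, adjusted p = 0.0203 and 0.00223), while 5 had an unadjusted p under 0.05 in the direction of a larger response in KO cells, against 3.28% of all genes. The adjusted call was made for 0.0484% of genes in that direction. Unstimulated and LPS libraries of the same number deviated together, and with the line as a block 6 of the 8 passed, against 0.835% of all genes. That pairing is inferred from the data and is not stated in the labels.

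Oas3 rose by 1.08, 1.05 and 1.35 on the log2 scale in WT lines 1, 2 and 3 and by 1.91, 2.10 and 2.14 in the KO lines, a difference of 0.90 without and 0.89 with the line block (adjusted p = 0.121 and 0.0077). Oas2 rose by 1.50, 1.48 and 1.73 in WT and by 2.28, 2.30 and 2.36 in KO lines, a difference of 0.75 in both fits (adjusted p = 0.204 and 0.00708). Oasl1 rose by 5.59, 5.17 and 5.33 in WT and by 6.58, 6.46 and 6.96 in KO lines, a difference of 1.31 without and 1.30 with the block (adjusted p = 0.656 and 0.00727). For Oasl2 the difference was 1.06 and 1.09 (0.462 and 0.0203), for Oas1a 0.45 in both fits (0.341 and 0.0256) and for Oas1g 0.46 in both (0.298 and 0.0192). For these 6 genes each KO line rose more than each WT line, which held for 6.86% of all genes. Oas1b, with 3.48 to 4.10 in WT and 3.89 to 4.13 in KO lines, and Oas1c, with differences of 0.29 and 0.14, did not pass in either fit (adjusted p with the block 0.530 and 0.641).

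**Figure D4:**
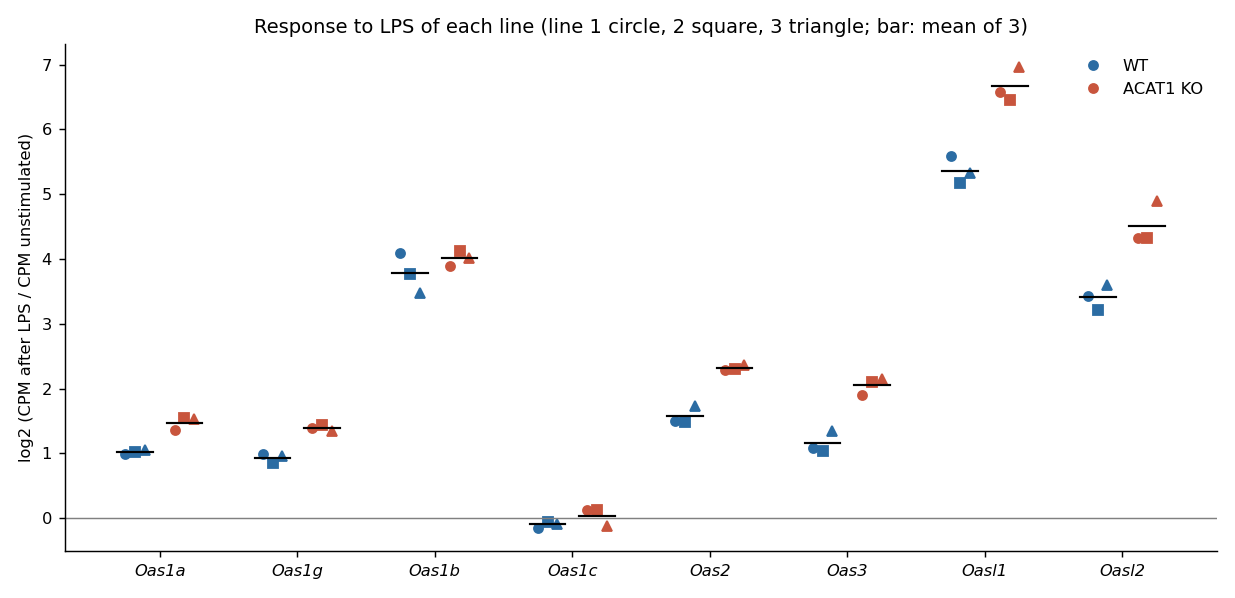
Response to LPS of each line, as log2 of CPM after LPS over CPM without stimulation of the library with the same number, for the 8 OAS genes. Blue is WT and red ACAT1 KO, symbols mark lines 1 to 3 and bars the means. The KO lines lie above the WT lines for Oas1a, Oas1g, Oas2, Oas3, Oasl1 and Oasl2, and the lines overlap for Oas1b and Oas1c.

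The members varied together among the lines of a genotype. WT line 1 was the lowest WT line for 8 of 8 genes in both states, and KO line 3 was the lowest KO line for 7 of 8 without stimulation and 8 of 8 after LPS. Line 2 of each genotype was the highest for 6 of 8 without stimulation and for 8 of 8 after LPS. The spread was widest for Oasl1, whose highest WT line held 3.82 times the lowest without stimulation and 2.86 times after LPS, and narrowest for Oas1c in unstimulated WT lines, at 1.04 times. The ratio of Oas1a to Oas1g counts was 1.33 ± 0.0579 in WT and 1.18 ± 0.0793 in KO cells without stimulation and 1.41 ± 0.0290 and 1.25 ± 0.0209 after LPS (SD, n = 3). In both states the ratio was lower in every KO line than in every WT line. With 3 lines in each group no exact permutation test could reach p = 0.05, and none was run.

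Genes tied to 2-5A and its relatives did not share a direction. Abce1, which recycles ribosomes, rose with LPS by 0.48 in WT and 0.40 in KO cells on the log2 scale. Pde12, which degrades 2-5A, rose by 1.03 and 0.85. Cgas, a DNA sensor of the same fold as OAS enzymes, rose by 1.36 and 1.33, and Akap7, which holds a domain that can degrade 2-5A, fell by 0.41 and by 0.61. The fall of Akap7 in WT cells did not pass without WT unstimulated library 2 or 3 or WT LPS library 1 (adjusted p = 0.0577, 0.0972 and 0.103), nor with the batch term (0.0596). None of these 4 genes passed between the genotypes in either state.

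The wider list of the pathway held 26 names. It covered the genes tied to 2-5A, double-stranded RNA sensors, the interferon receptor and its transcription factors, interferon regulatory factors and feedback genes. Of these names 25 are listed and 24 in both tables. The name not listed, Mb21d1, is another name of Cgas, so no gene of the list is missing. Without stimulation 5 of 24 were lower in KO cells, against 1.17% of all genes tested, and none was higher. They were the feedback protease Usp18 (-1.76, standard error 0.201, adjusted p = 0.0215), the RNA sensors Dhx58 (-0.68, 0.0882, 0.0311) and Ddx58 (-0.83, 0.124, 0.0390), the RNA editing enzyme Adar (-0.53, 0.0920, 0.0455) and Stat2, a subunit of the factor that drives OAS genes (-1.15, 0.156, 0.0344). Without 1 library between 0 and 4 of the 24 passed, 0 of them without WT 2, KO 1 or KO 3, 1 without WT 1 and 2 without KO 2. The median over the 24 was -0.18.

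After LPS 1 of 25 was lower in KO cells, the receptor chain Ifnar1 (-0.28, 0.0575, adjusted p = 0.0197), and 2 were higher, where 9.12% of all genes were called lower and 5.93% higher, so these counts are near the background. The higher ones were Ifih1, the sensor MDA5 (0.75, 0.166, 0.0240), and Ifnb1, which encodes interferon-beta (1.27, 0.309, 0.0312). Ifnb1 was at 24.6, 37.6 and 54.9 CPM in WT and 123, 93.4 and 63.1 CPM in KO lines, and is listed after LPS only. None of the 3 passed without WT library 2 or without KO library 1 or 2, Ifnar1 also not without KO library 3, and 6 genes of the list passed without WT library 1. Of the next genes by p, the adaptor Mavs differed by 0.20 (adjusted p = 0.0906) and the feedback inhibitor Socs1 by -0.34 (adjusted p = 0.196).

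With LPS 20 of the 24 rose and 2 fell in WT cells, and 19 rose and 3 fell in KO cells. Of all genes, 29.3% were called higher and 28% lower in WT cells, and 29.5% and 31.2% in KO cells. The smallest p in WT cells were those of Socs1 (5.67), Ifih1 (4.10), the transcription factor Irf1 (4.09), the ubiquitin-like Isg15 (4.99) and Adar (2.07). In KO cells they were those of Ifih1 (5.35), Socs1 (5.30), Isg15 (6.21), Adar (2.60) and Eif2ak2, the kinase PKR (2.67). In the interaction edgeR called 0 of the 24 without the line block, limma-voom called 0 and DESeq2 9. In edgeR 13 had an unadjusted p under 0.05, 11 of them larger in KO cells, against 3.28% of all genes in that direction. With the block 10 of the 24 passed, all with a larger response in KO cells, against 0.835% of all genes. Usp18 (1.53, adjusted p = 0.0533 without and 0.00118 with the block), Ifih1 (1.25, 0.0572 and 0.00709), Dhx58 (0.72, 0.0948 and 0.0111), Stat2 (0.93, 0.115 and 0.00421) and Isg15 (1.22, 0.129 and 0.00421) had the smallest p without it.

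**Figure D5:**
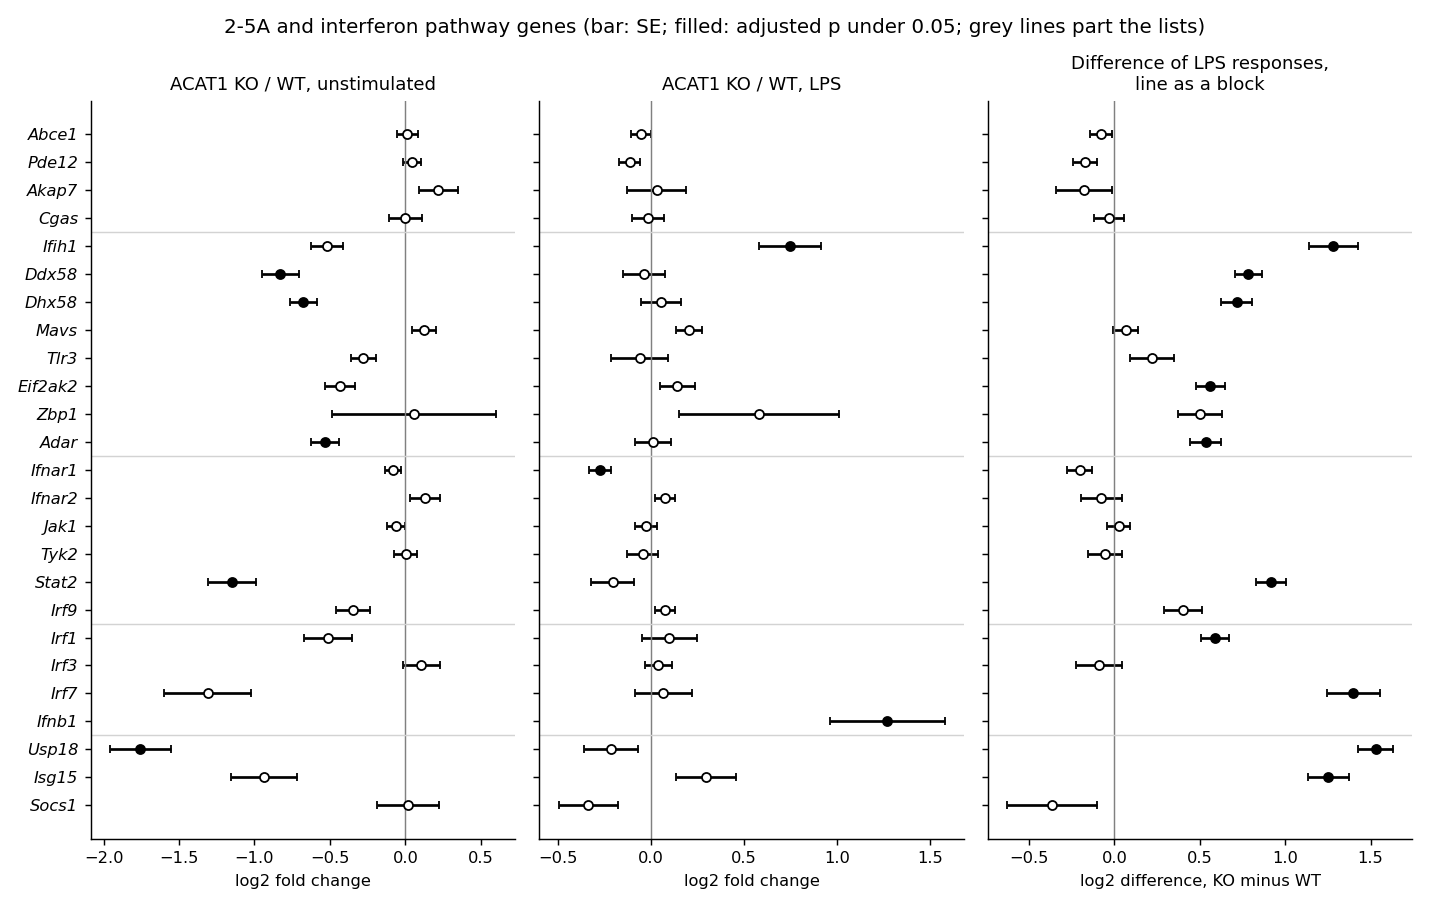
Log2 fold changes of the 25 listed pathway genes between the genotypes without stimulation and after LPS, and the difference of their LPS responses with the line as a block. Bars are standard errors, filled points have an adjusted p under 0.05, and grey lines part the 5 lists. The filled points lie below 0 in the left panel and above 0 in the right one, whereas in the middle panel 2 lie above and 1 below.

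The genes around the clusters were tested as well. Within 300 kb of the cluster from Oas2 to Oas1d, edgeR tested 13 other genes without stimulation. It called 0 between the genotypes (2 at an unadjusted p under 0.05, DESeq2 called 2). Around Oasl1 and Oasl2 it tested 18 and called 0 (2 at an unadjusted p under 0.05, DESeq2 called 1). Of all genes tested, 1.17% were called lower and 0.742% higher, so 0 calls among so few genes are near the background. After LPS 5 of 15 around the first cluster (Slc8b1, Tpcn1, 2510016D11Rik, Gm43069 and Hectd4) and 1 of 19 around the second (Unc119b) were lower in KO cells, against 9.12% of all genes, and these were named after their values were seen.

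Elsewhere in the genome, 4 of the 5 genes most like the OAS members over the 12 libraries, by Pearson correlation of log2 CPM with the mean standardized level of the 8, were H2-T23 (0.991), Ifi44l (0.990), Rtp4 (0.988) and Ifi44 (0.987). This likeness mostly follows the step between unstimulated and LPS libraries, which form separate clusters. Over the 6 unstimulated libraries 4 of the 5 were Olfr933 (0.997), Daxx (0.995), Tdrd3 (0.992) and Iigp1 (0.992). Ranking by Spearman's correlation kept 1 of the first 5 and 0 of the second.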

How the data were processed

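RNA-seq of 3 WT and 3 ACAT1 KO lines of J774A.1, each unstimulated and after LPS, was analysed by the groups and numbers in the labels. Per the study's methods and the submitters' notes, reads of a directional library kit were trimmed with Trimmomatic 0.33, aligned to GRCm38 with HISAT2 and quantified with StringTie. Values in the deposited tables, one per state, are raw gene counts in whole numbers. How these counts were made, and whether strand was used, is not given in the sources used here. The tables also hold 12 columns of log2 values per library and the authors' fold changes, scores and p-values, which were not used. Genes are listed only where 5 or more libraries of the table hold 4 counts or more, and 59 and 57 repeated entries were removed.

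Counts were fitted with edgeR 4.0.16 (R 4.3.3) by TMM, filterByExpr and the two-sided quasi-likelihood test. Genotypes were compared within each state, and LPS responses and the interaction over all 12 libraries. Genes passed at a Benjamini-Hochberg adjusted p under 0.05 over all genes tested. Standard errors were taken from the fold change and its F statistic. CPM use the normalized sizes of all 12 libraries, and lengths are the union of exons in GENCODE M21. The steps were checked on simulated counts with 200 changed genes. The simulated spread was smaller than that fitted without stimulation and over all 12 libraries, and no lines were paired. That check does not show how well those calls hold in these data. The alternatives were DESeq2 1.42.0, limma-voom (limma 3.58.1), other normalizations and filters, a replicate block, a batch term, all 12 libraries in a single fit and each library left out.

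Libraries of the same number and genotype in the 2 states deviated together from their group means (correlation 0.280 to 0.514 in 6 pairs), those of different numbers did not (-0.332 to -0.0729), so the number was taken to pair them. Nothing in the labels says that the lines were grown or sequenced on separate days. With the line as a block, p-values measure the spread of the LPS responses among lines of a genotype. Without a block they measure the spread between the libraries of a group. Lines have no repeat library within a state, so line and library preparation cannot be told apart in that spread. At 56948593 counts or more per library, counting error was small beside that spread for the members with most counts. For Oas1c, with 583 to 1108 counts in the unstimulated WT libraries, it was not. Members are matched by gene name, and the choice of this family and of the lists was made with earlier results of these data known. Named besides the members were Acat1, 4 genes tied to 2-5A or its relatives, for each comparison the 5 other pathway genes with the smallest p, genes near the clusters by counts, and the 5 genes most like the members. Gm13822 was named after its values were seen. Some genes of the lists and of the likeness ranking are not reported here and were left out of the counts of the pathway list.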

Additional observations from a re-analysis of the deposited data

Results flagged for a closer look

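The response to LPS differed between ACAT1 KO and WT cells for 6 OAS genes in edgeR's test of the interaction with the line as a block. The log2 difference, KO minus WT, was 0.45 for Oas1a, 0.46 for Oas1g, 0.75 for Oas2, 0.89 for Oas3, 1.30 for Oasl1 and 1.09 for Oasl2, and for each of them all 3 KO lines rose more than all 3 WT lines. Without the block none of the 6 passed in edgeR, and DESeq2 called Oas2 (0.76, adjusted p = 0.0203) and Oas3 (0.91, adjusted p = 0.00223). The block rests on a pairing of libraries that the labels do not state.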

How the results depend on the processing

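Over 712 fits of a member under an alternative, 659 gave the same call, 29 lost and 15 gained one, and 9 turned the direction of a value near 0. LPS responses called 7 members in each genotype with any 1 library left out, and 21 to 22 pathway genes in each. With a library left out, the members called numbered 0 to 2 between genotypes without stimulation, 0 to 4 after LPS and 0 in the interaction, and the pathway genes 0 to 4, 0 to 6 and 0 to 2. A single fit of all 12 libraries called 5 members and 9 pathway genes without stimulation and 0 members after LPS (3 at an unadjusted p under 0.05). DESeq2 called 4 members and 12 pathway genes without stimulation, and in the interaction 2 members and 9 pathway genes. In the interaction the replicate block of the line called 6 members and 10 pathway genes, and at least 10 counts in every library and the batch term called 2 pathway genes each. Between genotypes it is not clear that the numbers pair the libraries. Without stimulation, libraries of the same number correlated at -0.135 to 0.546 and those of different numbers at -0.681 to 0.420. After LPS the ranges were -0.0869 to 0.204 and -0.300 to 0.159. In edgeR, a replicate block by these numbers lost Oas1a without stimulation (adjusted p = 0.0643) and gained Oas3 after LPS (adjusted p = 0.0489). Upper-quartile normalization moved the median of all genes to -0.23 (WT) and -0.17 (KO) in the LPS responses, and relative to that shift Oas1c, at -0.30 (adjusted p = 0.0079) in WT and -0.11 in KO cells, changed little. After LPS, Oas1c fell below 0 between genotypes in the single fit (-0.0033) and without 1 library (-0.039 to 0.091), as did Oas1g (-0.015, and -0.078 to 0.067), and the KO response of Oas1c ran from -0.012 (without KO LPS library 2) to 0.12. The cause was not tested. Depth limits Oas1b and Oas1d most, at 123 and 26 counts in their lowest libraries, and to a lesser degree Oas1c, at 583.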
